A study of Nothobranchius furzeri with 25 samples.

Results

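The genes described here encode enzymes that make, recycle and use purines and activated methyl groups in the brain, together with close relatives of those enzymes. They were chosen by name: AHCY, AHCYL1, AHCYL2, ATIC, ADSL, ADSS, APRT, ADK, AMD1 and AMT, with every copy present, which added ADKA, a second copy of ADK. All 11 were found among the 18228 transcript contigs of the count table, and all 11 passed the filter on low counts that left 16484 genes for testing. RNA had been sequenced from whole brains of male Nothobranchius furzeri, the turquoise killifish, an annual fish with a very short lifespan. The fish were of the strain MZM 04/10 and were killed in a fasted state at one hour of the morning, at 5, 12, 20, 27 or 39 weeks of age. These ages stand for sexual maturity, young adulthood, adulthood, median lifespan and old age. There were 5 libraries at each age, 25 in all, and the design asks how the level of each transcript differs between ages.

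Cells build purine rings step by step from small precursors, some of which carry folate-bound carbon units, and they also rescue bases and nucleosides that are released when nucleic acids and ATP break down. The methyl cycle runs beside this network: S-adenosylmethionine gives its methyl group to DNA, histones, lipids and transmitters, and the by-product S-adenosylhomocysteine, which blocks these reactions, must be split into homocysteine and adenosine. Adenosine links both systems, and in the brain it also dampens neuronal firing through its own receptors, so the enzymes that clear it have been studied in sleep and epilepsy.

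Total counts per library lay between 15690560 and 26378519, and the level of a member in 1 library rested on at least 323 counts. Levels are given as CPM, counts scaled to the library size after TMM normalization with factors between 0.957 and 1.033. Differences between ages are log2 fold changes, older over younger, from edgeR's quasi-likelihood test, with a standard error (SE) and a p-value adjusted by Benjamini-Hochberg over all genes tested, and a gene was called at an adjusted p under 0.05. The summed level of 5 neuron markers was 3836 to 4307 CPM at 5 weeks and 2773 to 3543 CPM at 39 weeks, where 3 of the 5 were called lower, beside 18.7% of all genes. The list of 5 liver and plasma genes also reached 774.5 to 2142 CPM. The contigs have no chromosome position in the files, and each name comes from the best BLAST match. Each of the 11 contigs was a best hit in both directions with 1 zebrafish gene, ENSDARG00000005191 in the case of AHCY. AHCY with AHCYL1 and AHCYL2, ADK with ADKA, and ADSS with ADSSL and ADSSL1 are related in sequence, so that reads of near-identical stretches may have been lost or misplaced and the split within each family is uncertain. In whole tissue, fewer cells of a type and less RNA per cell cannot be told apart.

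Between 5 and 12 weeks, 3 of the 11 genes (27.3%) were called, where 23.8% of all genes tested were called. AHCY and ATIC were lower at 12 weeks, a direction that 13.0% of all genes had, and ADK was higher, as were 10.8%. Between 5 and 20 weeks 5 members (45.5%) were called against 32.0% of all genes, 2 of them lower (16.6%) and 3 higher (15.4%). Between 5 and 27 weeks 6 (54.5%) were called against 35.6%, 5 lower (18.7%) and 1 higher (16.9%), and between 5 and 39 weeks 5 (45.5%) against 36.9%, 3 lower (18.7%) and 2 higher (18.2%). A call against 5 weeks is common in these brains, and nothing particular to the 11 genes is read from these counts. The 4 comparisons share the same 5 libraries of 5 weeks. The median change of the 11 genes was 0.00 log2 at 12 weeks and at 39 weeks, beside 0.01 over all genes at both.

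**Figure D1:**
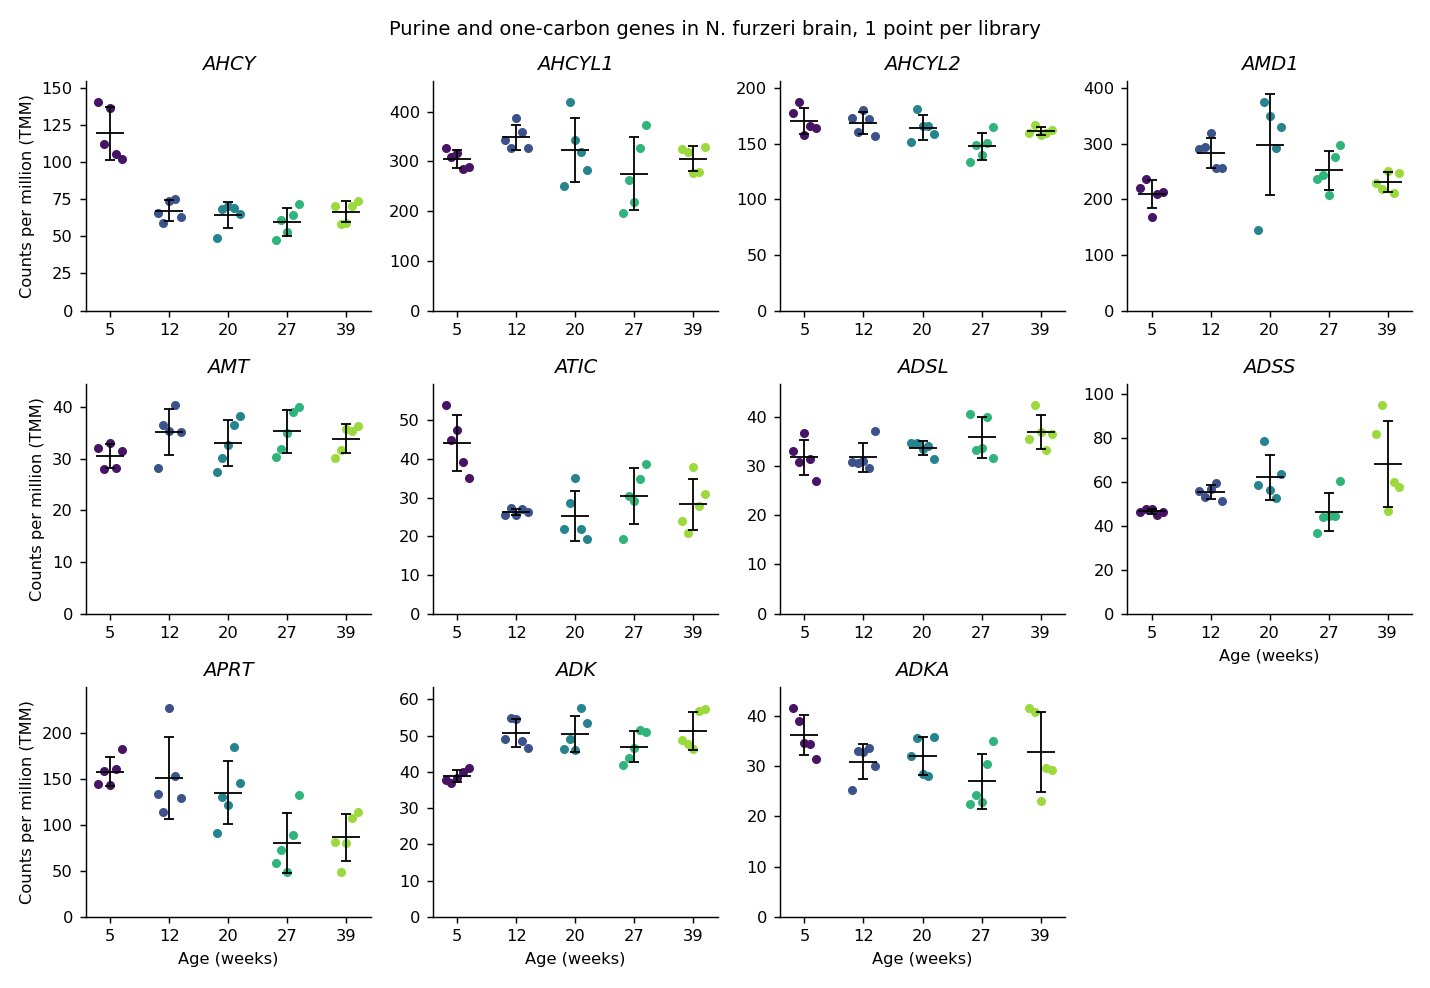
CPM (TMM-scaled, linear axis from 0) of the 11 genes against age in weeks, 1 point per library, with the mean and SD of the 5 libraries of each age as a bar. AHCY lies between 102 and 140 CPM at 5 weeks and between 47.5 and 75.4 CPM at all later ages, while ADK lies lower at 5 weeks (37.0 to 41.0 CPM) than at any later age.

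AHCY, S-adenosylhomocysteine hydrolase, is the enzyme that removes the by-product of methyl transfers from S-adenosylmethionine. At 5 weeks its level was 102, 106, 112, 136 and 140 CPM in the 5 libraries. At 12 weeks it was 58.8, 62.9, 65.7, 74.0 and 75.4 CPM, and at 20 weeks 48.6, 64.9, 68.3, 69.4 and 70.3 CPM. At 27 weeks it was 47.5, 53.0, 60.8, 64.1 and 72.0 CPM, and at 39 weeks 58.5, 59.3, 70.5, 70.6 and 73.4 CPM. No library of 5 weeks overlapped with any older library, and the 4 later ages overlapped with each other. AHCY was lower at 12 weeks (log2 fold change -0.82, SE 0.12, adjusted p = 4e-05, edgeR), which makes the 5-week level 1.77 times that of 12 weeks. Against 5 weeks the log2 fold change was -0.89 at 20 weeks, -1.002 at 27 weeks and -0.84 at 39 weeks (adjusted p = 9.1e-06 for the last, edgeR). Between 12 and 39 weeks it was -0.02 with a 95% interval from -0.25 to 0.22.

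The relatives AHCYL1 and AHCYL2 carry the fold of AHCY without its hydrolase activity, and in mammals they bind the inositol trisphosphate receptor and regulate ion transporters. AHCYL1 ranged from 284 to 326 CPM at 5 weeks, 326 to 387 at 12 weeks, 251 to 420 at 20 weeks, 196 to 372 at 27 weeks and 277 to 329 CPM at 39 weeks. It was called in no comparison. Its change from 5 to 39 weeks was 0.00 log2 with a 95% interval from -0.26 to 0.27. AHCYL2 was the least variable of the 11 genes: its pooled SD within ages was 0.09 log2, and 2.7% of all genes had a smaller one. At 5 weeks AHCYL2 stood at 158, 164, 166, 178 and 188 CPM, and at 27 weeks at 133, 140, 149, 151 and 165 CPM. Those ages overlapped in range, and AHCYL2 was lower at 27 weeks (-0.21 log2, SE 0.06, adjusted p = 0.012, edgeR), its only call.

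The balance within this family was measured as the share of AHCY in the reads of AHCY, AHCYL1 and AHCYL2. It was 18.4, 18.4, 19.0, 21.8 and 22.3% in the libraries of 5 weeks and 10.7, 11.3, 11.5, 11.5 and 12.4% in those of 12 weeks. The 5-week libraries lay above the highest older share, 13.9% at 39 weeks. In RPKM the mean share of AHCY was 6.84% ± 0.92 (SD, n = 5) at 5 weeks and 3.85% ± 0.24 at 12 weeks, a difference of -2.99 percentage points (exact two-sided permutation test, p = 0.0079, the smallest that 5 against 5 libraries allow; adjusted p = 0.014 over 9 share tests). Between 12 and 39 weeks the difference was 0.23 points (exact permutation p = 0.32, adjusted p = 0.41). Both the size of an RPKM share and its change in points depend on the contig lengths behind RPKM, which are in doubt. In read shares the same difference was -8.47 points (exact permutation adjusted p = 0.014), and only the direction of the change is read. The ratio of AHCY to AHCYL1 counts, which no length enters, was lower at 12 weeks (-1.01 log2, exact permutation adjusted p = 0.014), a measure added after the data were seen.

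AMD1, S-adenosylmethionine decarboxylase, draws on the same methyl donor and supplies the aminopropyl groups of the polyamines spermidine and spermine. At 5 weeks it stood at 168, 209, 213, 221 and 237 CPM, at 12 weeks at 257, 257, 291, 294 and 320 CPM, and at 20 weeks at 146, 293, 330, 350 and 376 CPM. At 27 weeks it was 208, 237, 244, 276 and 298 CPM, and at 39 weeks 212, 218, 230, 248 and 251 CPM. The libraries of 12 weeks lay above all of 5 weeks and all of 39 weeks, and 1 library of 20 weeks, JM75, lay below every other library of the series. AMD1 was higher at 20 than at 5 weeks by 0.51 log2 (SE 0.16, adjusted p = 0.018, edgeR). That call was lost without 6 libraries titled with w0w1, a mark of unknown meaning (adjusted p = 0.097), in a fit of the 2 ages alone (0.08), without the 5-week library JM103 (0.052) and without the 20-week library JM79 (0.056). Over the 32 alternatives the change at 20 weeks ran from 0.42 to 0.69 log2, and its adjusted p from 5.2e-05 to 0.097. At 12 weeks the change was 0.44 log2 with an adjusted p of 0.051. It was called in 5 of 32 alternatives, namely in a fit of the 2 ages alone (0.0075), by DESeq2 (0.032) and without 20-week JM75 (0.0028), 20-week JM79 (0.044) or 27-week JM72 (0.05 after rounding), and its adjusted p ran from 0.0028 to 0.26.

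AMT, the aminomethyltransferase of the glycine cleavage system, loads a carbon unit from glycine onto tetrahydrofolate. It ranged from 28.0 to 33.1 CPM at 5 weeks and from 27.4 to 40.4 CPM over all later ages. It was called in no comparison, and the interval of its change from 5 to 39 weeks ran from -0.05 to 0.35 log2.

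ATIC catalyses the final steps that close the purine ring to inosine monophosphate. Its level at 5 weeks was 35.1, 39.3, 45.0, 47.5 and 53.9 CPM, and at 12 weeks 25.4, 25.6, 26.4, 27.0 and 27.3 CPM. At 20 weeks it was 19.2, 21.8, 22.0, 28.7 and 35.1 CPM, at 27 weeks 19.4, 29.2, 30.3, 34.7 and 38.7 CPM, and at 39 weeks 20.9, 23.9, 27.9, 30.9 and 38.0 CPM. The 5-week libraries lay above all of 12 weeks, with no overlap, while 27 and 39 weeks reached into their range. ATIC was lower at 12 weeks (-0.74 log2, SE 0.17, adjusted p = 0.0035, edgeR), and its log2 fold change against 5 weeks was -0.80 at 20 weeks (adjusted p = 0.0013), -0.53 at 27 weeks (0.019) and -0.64 at 39 weeks (0.0058). The call at 27 weeks was lost without the 5-week library JM100 (adjusted p = 0.054) or the 27-week library JM52 (0.065). The SD of ATIC among the 12-week libraries was 0.04 log2, against 0.24 to 0.38 at the other ages.

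**Figure D2:**
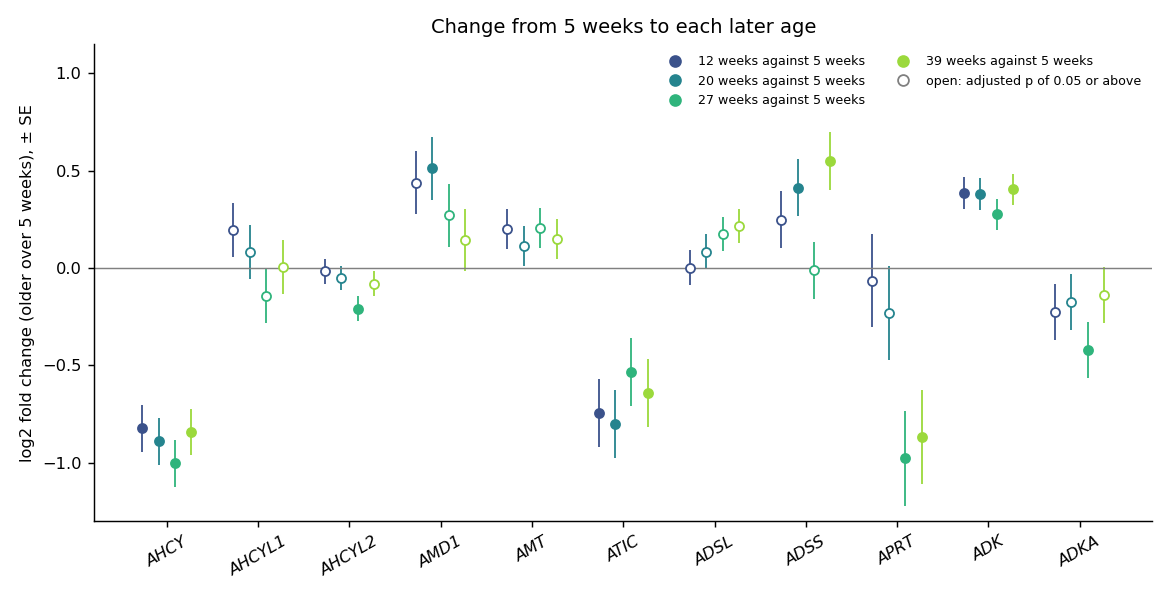
Log2 fold change of each gene at 12, 20, 27 and 39 weeks against 5 weeks (points, coloured by age) with its SE (bars), from edgeR. Filled points passed an adjusted p of 0.05. AHCY and ATIC lie below 0 and ADK above 0 at all 4 later ages, and APRT lies below 0 with filled points at 27 and 39 weeks.

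Markers of dividing cells moved with the 5-week group as AHCY and ATIC did. The summed level of 11 such genes was 221.9 to 299.4 CPM at 5 weeks, 159.9 to 179.8 at 12 weeks and 148.1 to 169.1 CPM at 39 weeks. Of the 11 genes, 9 were called lower at 12 weeks, beside 13.0% of all genes, and none was at 0 at any age. Their part in the levels of AHCY and ATIC was not tested.

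ADSL and ADSS act on the way from inosine monophosphate to adenosine monophosphate. ADSL, adenylosuccinate lyase, also serves an earlier step of ring synthesis. It ranged from 26.9 to 36.7 CPM at 5 weeks, 29.6 to 37.0 at 12 weeks, 31.4 to 34.6 at 20 weeks, 31.6 to 40.6 at 27 weeks and 33.2 to 42.4 CPM at 39 weeks. All ages overlapped and none of the comparisons was called. From 5 to 39 weeks its change was 0.21 log2 (SE 0.09, adjusted p = 0.058, edgeR, from 0.021 to 0.25 over the alternatives).

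ADSS, adenylosuccinate synthase, takes the first step of that branch. At 5 weeks it stood at 44.9, 46.0, 46.3, 47.6 and 47.7 CPM, at 12 weeks at 51.2, 53.2, 55.6, 56.5 and 59.3 CPM, and at 20 weeks at 52.7, 56.4, 58.6, 63.4 and 78.6 CPM. At 27 weeks it was 36.8, 44.2, 44.5, 44.5 and 60.5 CPM, and at 39 weeks 46.5, 57.6, 59.8, 81.8 and 94.8 CPM. The libraries of 5 weeks lay below all of 12 and 20 weeks, 4 of the 5 at 27 weeks lay below every library of 5 weeks, and the 39-week group was spread widest. ADSS was higher at 39 than at 5 weeks by 0.55 log2 (SE 0.15, adjusted p = 0.0052, edgeR), a call lost without the libraries marked w0w1 (0.079). At 20 weeks it was higher by 0.41 log2 (adjusted p = 0.034), a call lost in 7 of 32 alternatives, namely without the marked libraries (0.088), without 5-week JM100 (0.08), JM101 (0.054), JM96 (0.062) or JM97 (0.053), and without 20-week JM79 (0.11) or JM86 (0.063). From 27 to 39 weeks, where 1.07% of all genes were called, the change of 0.56 log2 was not called (adjusted p = 0.057). It was called by DESeq2 (adjusted p = 0.012) and without 20-week JM79 (0.044), 27-week JM72 (0.018), 39-week JM13 (0.012) or 39-week JM18 (0.045), and its adjusted p ran from 0.012 to 0.24 over the alternatives.

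ADSSL, a further gene of the synthase family, was lower at 12 than at 5 weeks (-0.47 log2, SE 0.12, adjusted p = 0.0055, edgeR), with mean levels of 50.4 ± 5.60 and 69.6 ± 7.62 CPM (SD, n = 5). The share of ADSS in the reads of ADSS, ADSSL and ADSSL1 was 37.0, 37.8, 38.7, 39.97 and 43.2% at 5 weeks and 47.8, 51.4, 51.6, 51.9 and 53.6% at 12 weeks. At 39 weeks it was 46.4, 48.8, 49.7, 54.2 and 56.0%. The shares of 5 weeks lay below all later ones, the lowest of which was 44.3% at 27 weeks. In RPKM the mean share was 10.9% ± 1.14 at 5 and 16.6% ± 1.27 at 12 weeks (SD, n = 5; exact permutation p = 0.0079, adjusted p = 0.014). The ratio of ADSS to ADSSL counts was higher at 12 weeks by 0.71 log2 (exact permutation adjusted p = 0.014).

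**Figure D3:**
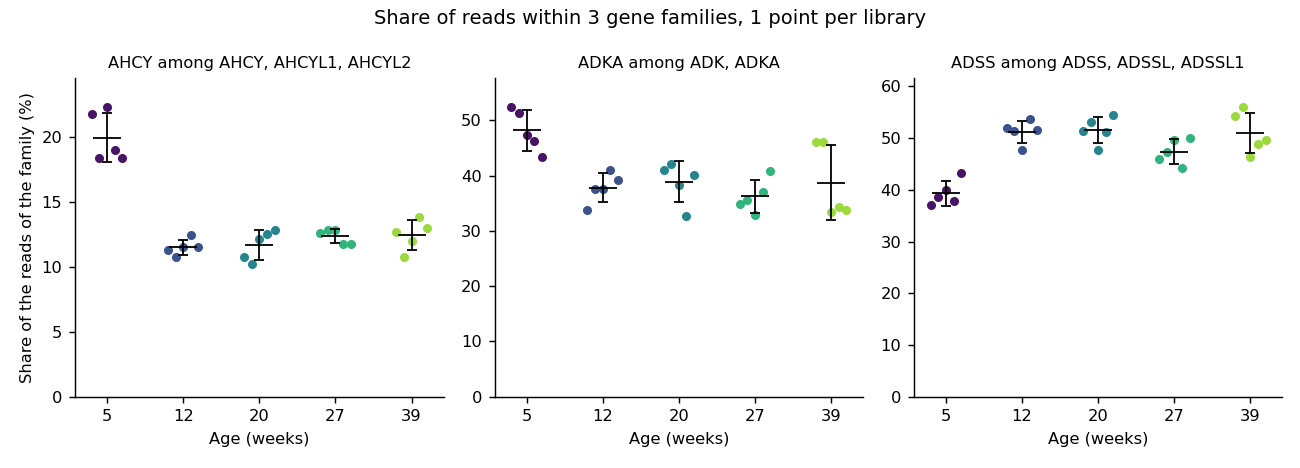
Share of the reads of a gene family (percent, axis from 0) that fell on AHCY, ADKA and ADSS, by age in weeks, 1 point per library with the mean and SD of the 5 libraries of an age. The 5-week libraries stand apart for AHCY (18.4 to 22.3%, against at most 13.9% later) and for ADSS (37.0 to 43.2%, against at least 44.3% later). For ADKA the libraries of 39 weeks fall into a pair near 46% and 3 between 33.3 and 34.3%.

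APRT returns free adenine to the nucleotide pool. At 5 weeks its level was 143, 144, 159, 161 and 183 CPM, at 12 weeks 113, 129, 133, 153 and 227 CPM, and at 20 weeks 91.5, 121, 130, 145 and 185 CPM. At 27 weeks it was 48.7, 58.8, 72.2, 88.5 and 132 CPM, and at 39 weeks 49.0, 79.7, 81.1, 108 and 114 CPM. The 5-week libraries lay above all of 27 and 39 weeks and overlapped with 12 and 20 weeks. APRT was lower at 27 than at 5 weeks (-0.98 log2, SE 0.24, adjusted p = 0.0031, edgeR) and at 39 weeks (-0.87 log2, SE 0.24, adjusted p = 0.0068), and both calls stood in all 32 alternatives. At 12 weeks its change was -0.06 log2 with a 95% interval from -0.53 to 0.41.

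APRT was also the one gene of the 11 called between adult ages. Between 12 and 39 weeks, where 12.6% of all genes were called, it was lower (-0.80 log2, SE 0.24, adjusted p = 0.032, edgeR). Its slope over the 20 libraries of 12 to 39 weeks was -0.33 log2 per 10 weeks (SE 0.10, adjusted p = 0.04), in a test that called 8.16% of 16406 genes. Among the 11 genes APRT varied most within ages, with a pooled SD of 0.41 log2, larger than in 84.2% of all genes. The call between 12 and 39 weeks was lost without the libraries marked w0w1 (adjusted p = 0.25), without 12-week JM104 (0.052), JM107 (0.084) or JM109 (0.055), and without 39-week JM1 (0.073) or JM12 (0.094). The slope was lost without the same libraries (adjusted p from 0.065 to 0.25) and without 39-week JM13 (0.053). Markers of red blood cells, ALAS2 and BA1, were lower at 27 and 39 weeks too. Their summed level was 75.7 to 142.9 CPM at 5 weeks, 27.3 to 73.6 at 12 weeks and 16.3 to 65.3 at 20 weeks. It was 12.4 to 48.9 CPM at 27 weeks and 8.76 to 95.7 CPM at 39 weeks. Unlike APRT, which overlapped between 5 and 12 weeks, this sum lay below all of 5 weeks already at 12 weeks, with a list median of -0.735 log2. Against 5 weeks, neither marker gene was called at 12 weeks, and 1 of the 2 was called lower at 20 weeks, beside 16.6% of all genes. Both were called lower at 27 and at 39 weeks, beside 18.7% of all genes at each age. Of the 5 neuron markers, 2 were called lower at 27 weeks and 3 at 39 weeks against 5 weeks, beside 18.7% of all genes at each of these ages. The part of either cell type in the level of APRT was not tested.

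No member was called between 12 and 20 weeks (0.0546% of all genes called), between 12 and 27 weeks (0.0303%), between 20 and 27 weeks (0.0%), between 20 and 39 weeks (0.273%) or between 27 and 39 weeks by edgeR. At an unadjusted p under 0.05 these comparisons held 0, 3, 3, 2 and 1 of the 11 genes, and 9.99, 11.8, 9.82, 17.3 and 21.5% of all genes. DESeq2 called 1 member between 12 and 27 weeks and 1 between 27 and 39 weeks. The shares of all genes above are those of edgeR, and the share that DESeq2 called is not given. Nothing particular to the 11 genes is read from these DESeq2 counts. In the test of any difference between the 5 ages, AHCY (adjusted p = 1.6e-06), ADK (0.0016), ATIC (0.0033), APRT (0.0039) and ADSS (0.0092) were called by edgeR, 5 of 11 against 42.1% of all genes. AHCYL2 (0.054) and AMD1 (0.058) lay just above the threshold, and ADSL (0.12), ADKA (0.17), AHCYL1 (0.28) and AMT (0.36) further from it. AHCYL2 was called in 6 of 31 alternatives, and its adjusted p ran from 0.016 to 0.16. AMD1 was called in 2 of 31, by DESeq2 (0.027) and by edgeR without 20-week JM75 (0.00017), and its adjusted p ran up to 0.33.

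ADK, adenosine kinase, clears adenosine by turning it into adenosine monophosphate, and in the mammalian brain it is found mainly in astrocytes. At 5 weeks it stood at 37.0, 37.8, 38.4, 39.8 and 41.0 CPM, and at 12 weeks at 46.5, 48.4, 49.2, 54.6 and 55.0 CPM. At 20 weeks it was 46.0, 46.3, 49.0, 53.5 and 57.6 CPM, at 27 weeks 41.9, 43.8, 46.5, 50.9 and 51.6 CPM, and at 39 weeks 46.3, 47.6, 48.7, 56.9 and 57.2 CPM. The 5-week libraries lay below every older library. ADK was higher at 12 weeks by 0.39 log2 (SE 0.08, adjusted p = 0.0014, edgeR), at 20 weeks by 0.38 (adjusted p = 0.001), at 27 weeks by 0.28 (0.01) and at 39 weeks by 0.40 (4e-04), which is 1.32 times the 5-week level. Its SD within ages, 0.12 log2, was larger than in 12.8% of all genes. From 12 to 39 weeks its change was 0.02 log2 with a 95% interval from -0.14 to 0.18.

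ADKA, annotated as another copy of the kinase, was called at 1 age against 5 weeks, in the direction opposite to ADK. At 5 weeks it was at 31.5, 34.4, 34.6, 39.0 and 41.6 CPM, at 12 weeks at 25.2, 29.99, 32.8, 33.0 and 33.7 CPM, at 20 weeks at 28.0, 28.5, 32.1, 35.6 and 35.9 CPM, and at 27 weeks at 22.4, 22.8, 24.2, 30.4 and 35.1 CPM. At 39 weeks the libraries JM1 and JM12 had 41.6 and 40.8 CPM and the other 3 had 23.2 to 29.7 CPM, and the same pair was highest for ADSS. ADKA was lower at 27 than at 5 weeks (-0.42 log2, SE 0.15, adjusted p = 0.027, edgeR). That call was lost without 5-week JM100 (0.059) or JM101 (0.061) and without 27-week JM52 (0.079), JM62 (0.062) or JM66 (0.075).

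The share of ADKA in the reads of both kinases was 43.4, 46.3, 47.4, 51.3 and 52.3% at 5 weeks and 33.9, 37.5, 37.5, 39.2 and 41.1% at 12 weeks, with no overlap. The ratio of ADKA to ADK counts was lower at 12 weeks (-0.61 log2, exact permutation p = 0.0079, adjusted p = 0.014). In RPKM the mean share was 57.0% ± 3.61 at 5 and 46.5% ± 2.83 at 12 weeks (SD, n = 5; adjusted p = 0.014). At 39 weeks the 5 shares of reads were 33.3, 33.8, 34.3, 46.1 and 46.2%, and the difference in mean RPKM share from 5 weeks, -9.68 percentage points, was not called (exact permutation p = 0.04, adjusted p = 0.06). Without JM1 or without JM12 it was -11.6 points in both cases with an adjusted p of 0.024. ASPA, the 1 oligodendrocyte marker, moved with ADK: it was at 22.9 to 29.9 CPM at 5 weeks and 41.3 to 69.4 CPM at 12 weeks. The astroglia genes AQP4 and ATP1A2A summed to 4.13 to 6.81 CPM at 5 weeks and 4.86 to 6.56 at 12 weeks, and were not called in any comparison. These levels are low, and the study's authors state that teleost brains lack astroglia, so no stable glial content is read from them. The part of either cell type in the level of ADK was not tested.

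Single libraries recurred at the ends of the range across these genes. At 27 weeks, JM52 was the lowest of its age in 8 of the 11 genes and JM72 the highest in 9. ADSL ran the other way, with JM52 highest and JM72 lowest. At 20 weeks JM75 was the lowest in 6 genes. How often these libraries lay at the ends of the range over all genes was not counted. Nothing particular to the 11 genes is read from this.

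By likeness of pattern, measured as the root mean square difference of centred log2 CPM over the 25 libraries among 1905 named genes, the nearest genes to AHCY were ACTR3, a subunit of the Arp2/3 complex (0.16 log2), ALDH7A1, an aldehyde dehydrogenase of lysine breakdown (0.16), and BCL7A, a chromatin remodelling subunit (0.17). On this scale AHCY itself varied by 0.40 log2 and the 11 genes by 0.11 (AHCYL2) to 0.57 (APRT). ALDH7A1 was also nearest to ATIC (0.22), followed by B3GALNT2 (0.23) and ACOX3 (0.24). APRT lay at least 0.35 from its nearest genes ATG7, ACOT7 and ACSL6. The nearest to ADSS were ATP2A2 (2 OF 2), C18ORF32 and ADAM11 (0.16 to 0.17), and to ADK C17H15ORF57, BRD9 and ABTB1 (0.12 to 0.13). C11H19ORF56, AGXT2L2 and BCKDK were nearest to ADKA (0.15 each), ATF6B, ASB12B and ARHGAP23 (1 OF 2) to AMD1 (0.22 to 0.24), and ARFRP1, APPBP2 and AP1M1 to AHCYL2 (0.08 to 0.09). Within the 11 genes, AHCY and ATIC lay 0.27 apart and ADK and ADKA 0.34.

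Around these enzymes, 4 lists of pathway genes from the same part of the alphabet were tested. Adenylate kinases balance AMP, ADP and ATP, and 2 of 8 (25.0%) were called at 39 against 5 weeks, both higher, where 36.9% of all genes were called and 18.2% were higher, with a list median of 0.14 log2 beside 0.01 over all genes. AK4, a mitochondrial member, rose by 0.93 log2, with 92.2 ± 8.04 CPM at 5 and 175.7 ± 10.2 CPM at 39 weeks (SD, n = 5; adjusted p = 3.9e-06, edgeR) and had 131.1 ± 12.0 CPM at 12 weeks. AK5, a form known from brain, reached 271.6 ± 22.6 CPM from 158.6 ± 10.1 CPM (0.78 log2, adjusted p = 8.3e-06). For AK4 and AK5 no library of 39 weeks overlapped with one of 5 weeks. AK1 was higher at 12 weeks (0.94 log2 against 5 weeks, adjusted p = 0.011), where its 5 libraries ran from 77.4 to 263.9 CPM. The call was lost without the marked libraries (0.055), without 12-week JM104 (0.059) or JM105 (0.054), and in a fit of the 2 ages alone (0.071).

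**Figure D4:**
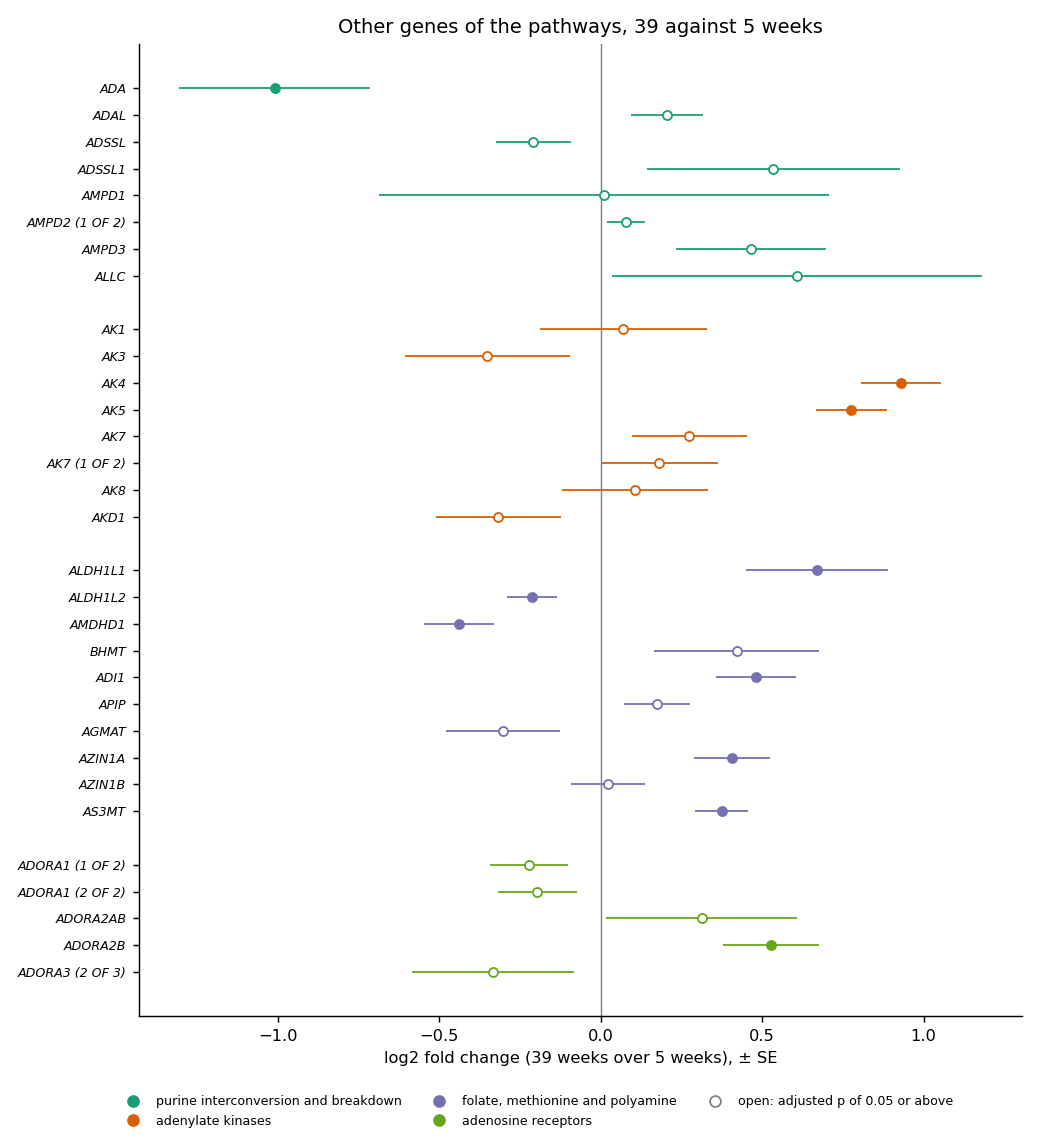
Log2 fold change, 39 over 5 weeks, with its SE for the other genes of 4 pathway lists (coloured by list), from edgeR. Filled points passed an adjusted p of 0.05. AK4 (0.93) and AK5 (0.78) have filled points to the right of 0, and ADA lies lowest at -1.01.

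Among 8 genes of purine interconversion and breakdown, 1 (12.5%) was called at 39 against 5 weeks, beside 36.9% of all genes. This was ADA, adenosine deaminase, another enzyme that clears adenosine. It was lower (-1.01 log2, SE 0.30, adjusted p = 0.0097, edgeR), from 6.50 ± 1.58 to 3.22 ± 0.91 CPM without overlap between the groups. ADA and ADK lay in opposite directions against the same 5-week libraries. ADKA, the other kinase copy, lay on the side of ADA at each later age. It was called at 27 weeks alone, and its change at 39 weeks was -0.14 log2. AMPD1, which deaminates AMP and is known from skeletal muscle, ranged from 0.71 to 29.4 CPM at 5 weeks and was not called at any age. AMPD2 (1 OF 2) was higher at 12 weeks by 0.18 log2 (adjusted p = 0.032), a call lost in 8 of 32 alternatives. Skeletal muscle markers ranged from 100.8 to 546.2 CPM at 5 weeks and from 82.9 to 227.1 CPM later.

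Of 10 genes of folate, methionine and polyamine metabolism, 4 rose and 2 fell between 5 and 39 weeks (60.0% called, beside 36.9% of all genes, of which 18.2% higher and 18.7% lower), with a list median of 0.27 log2 beside 0.01 over all genes. AMDHD1, which acts in histidine breakdown, a source of folate-bound carbon, was lower at every later age (-0.44 log2 at 39 weeks, adjusted p = 0.0028, edgeR). AS3MT, a methyltransferase for arsenic, was higher by 0.38 log2 (adjusted p = 0.001), and ADI1, which works in methionine salvage downstream of polyamine synthesis, by 0.48 log2 (0.0042). AZIN1A, a copy of the antizyme inhibitor that promotes polyamine synthesis, was higher by 0.41 log2 (0.0085), with 49.5 ± 3.40 CPM at 5 and 65.6 ± 9.87 CPM at 39 weeks (SD, n = 5). The other copy, AZIN1B, was not called, with 401.9 ± 52.9 CPM at 5 and 408.3 ± 84.0 CPM at 39 weeks. Both copies were matched to the same zebrafish gene, and only AZIN1B was a best hit in both directions. ALDH1L1 was also higher and ALDH1L2 lower at 39 weeks. Their calls were lost in 3 and 6 of 32 alternatives.

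Of 7 adenosine receptor genes, 5 passed the filter and 1 of these (20.0%) was called at 39 against 5 weeks, beside 36.9% of all genes. ADORA2B rose by 0.53 log2, with 5.76 ± 0.36 CPM at 5 and 8.31 ± 0.48 CPM at 39 weeks (SD, n = 5; adjusted p = 0.0071, edgeR) and was higher at all 4 later ages. ADORA3 (2 OF 3) was lower at 20 weeks (-0.81 log2, adjusted p = 0.018), a call lost without 20-week JM75 (0.056). For ADORA1 (1 OF 2) and ADORA1 (2 OF 2), copies of the receptor that quiets neurons in mammals, no comparison was called. The microglia list, 5 genes, summed to 15.0 to 20.2 CPM at 5 and 27.4 to 61.2 CPM at 39 weeks, and its part in these results was not tested.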

How the data were processed

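RNA of 25 whole brains was sequenced from TruSeq libraries as single reads. The authors mapped reads with Bowtie to transcript contigs and deposited raw counts and RPKM per contig. The submitters' processing notes list featureCounts 1.4.3-p1, TopHat2 2.0.6 and CASAVA with no role. A later pair of tables, whose IDs carry no names, was not used here. Names were paired with contigs by equal shares of the 5 age means (tolerance 3e-06; 1994 of 1999 names), from a table cut at C1QL4. RPKM of a gene in both tables differed by a gene-specific factor, within 1% for 30 of 1994 genes. The lengths behind the deposited RPKM are therefore in doubt, and levels of different genes are not compared. Only changes within a gene are read, and for an RPKM share only the direction of its change, beside read shares and count ratios.

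TMM-normalized counts were compared with edgeR 4.0.16 (R 4.3.3, quasi-likelihood, filterByExpr, Benjamini-Hochberg), all ages in 1 model; the adult trend used 20 libraries. DESeq2 1.42.0 was an alternative. The 95% intervals were built from the SE with a normal approximation, so they are slightly narrower than edgeR's test implies. Shares were compared by exact permutation tests (Python 3.11.15, NumPy 2.4.6, SciPy 1.17.1, pandas 2.3.3, matplotlib 3.10.9). Named were all members, up to 4 genes per pathway list with the smallest p over 5 ages (others named were chosen after their values were seen), and the 3 nearest genes per called member. Members, lists and markers were chosen with earlier results of these data known. One gene meant for the pathway lists was left out of them and is not reported here. Replicates are single animals, and no pair of libraries of 1 age agreed within sampling noise (mean chi-square per gene at least 12.2). On simulated data for 5 against 12 weeks (16484 genes), 79 of 100 genes changed 2-fold and 54 of 100 changed 1.5-fold were recovered, with 3 false among 136 calls. Reads carry no molecular identifiers, so amplification error cannot be separated from the spread between libraries. An amplification bias common to all libraries is not covered by the intervals.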

Additional observations from a re-analysis of the deposited data

Results flagged for a closer look

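Among 70 groups of 5 libraries checked (11 genes and 3 family shares at 5 ages), in which chance sets apart about 1 group in 20, a single library stood far from the other 4 for 2 genes. AHCY in the 20-week library JM75 was at 48.6 CPM, below the other 4 at 64.9 to 70.3 CPM, and the gap took 0.752 of the whole range, against a limit of 0.71. ADSL in the 12-week library JM113 was at 37.0 CPM, above the other 4 at 29.6 to 31.0 CPM, with a gap of 0.821 of the range. The AHCY calls against 5 weeks stood without JM75. For ADSL, the change from 5 to 39 weeks was called without JM113 (adjusted p = 0.047, edgeR) and not with it (0.058). JM113 belongs to neither of these ages, and the change was 0.21 log2 with and without it. The library enters that test only through the model shared by all ages.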

How the results depend on the processing

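Results were recomputed under 34 alternatives: other scaling factors, no filter, DESeq2, only the 2 ages compared, the mark w0w1 as a factor or its 6 libraries left out, read shares, count ratios (added after the data were seen) and each library left out in turn. The later count table was not run, because its IDs carry no names. No paired analysis was possible because the libraries carry no replicate numbers shared between ages. Of 77 single-gene results, 47 kept their side of the threshold throughout, among them all calls of AHCY and ADK. A fit of the 2 ages alone called 6 members between 5 and 12 weeks (3 in the model of all ages) and 2 between 12 and 39 weeks (1). Without the marked libraries 3 members were called between 5 and 20 weeks (5), 0 between 12 and 39 weeks and 0 in the adult trend (1 each). DESeq2 called 1 between 12 and 27 weeks and 1 between 27 and 39 weeks (0 each). With 1 library left out, members called ran from 3 to 5 between 5 and 20 weeks and from 4 to 7 between 5 and 27 weeks. They ran from 0 to 1 between 12 and 27 weeks and from 0 to 2 between 12 and 39 weeks. Between 20 and 39 weeks and between 27 and 39 weeks they ran from 0 to 1, and in the adult trend from 0 to 2. The shares of all genes called under these alternatives are not given, so nothing particular to the 11 genes is read from these counts. Without the marked libraries the differences in RPKM share kept their direction but were not called: AHCY -3.04 and -2.73 points at 12 and 39 weeks against 5 (adjusted p = 0.064 each, exact permutation), ADSS 6.30 and 5.06 points (0.064 each) and ADKA -10.7 points at 12 weeks (0.086). There, 4 against 3 libraries cannot give an exact p below 0.029. From 12 to 39 weeks, where no share was called, the difference turned sign for ADKA without the marked libraries (from 0.83 to -1.32 points) and for ADSS there (from 0.08 to -1.25) and in read shares (-0.26). With 1 library left out it ran from -1.11 to 2.24 points for ADKA and from -0.56 to 0.74 for ADSS, and ADKA at 39 against 5 weeks from -11.6 to -8.27. The cause of these shifts was not tested. Of genes simulated with a 1.5-fold change between 5 and 12 weeks, 54 of 100 were recovered. Few genes were changed in that simulation, which makes its adjusted threshold stricter than in the data, where 23.8% of genes were called. Recovery in the data was not measured, and small changes may be missed.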

Other observations

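The contig length that the deposited RPKM implies, taken as CPM over RPKM, was 5.30 to 5.42 kb for AHCY, 0.794 to 0.812 kb for AHCYL2 and 0.406 to 0.415 kb for ADSSL over the 25 libraries. For 915 of 1994 named genes the RPKM of the 2 tables lay over 2-fold apart, although their shares over the 5 ages were equal. Fold changes and count ratios do not depend on these lengths.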
